A study of Homo sapiens with 2 samples.

Results

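DNA transposons are the sequences under 189 of the 21440 mTOR peaks called in MDA-MB-231. This established line of human cells comes from a triple-negative breast cancer. Chromatin from these cells, grown in serum, was cross-linked and enriched with an antibody against mTOR, the kinase that couples nutrient supply to growth, and was sequenced (ChIP-seq). The series set 1 mTOR ChIP library beside 1 input library of unenriched chromatin, and the values below come from the annotated peaks of the ChIP library. Members were the peaks whose centre carried a repeat label of a class starting with DNA in the deposited annotation. They made up 0.882% of all peaks (exact Clopper-Pearson 95% interval 0.761 to 1.02%) and 1.37% of the 13813 peaks with a repeat label (1.18 to 1.58%). No value of signal was used in choosing them. With 1 library there is no replicate and no test between groups, the depth is unknown, and all intervals cover counting error only. A set of peaks is therefore described here beside others by its values, and intervals that overlap or do not overlap are no test.

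DNA transposons move by excision and reinsertion of the DNA itself. An encoded transposase binds the inverted repeats at both ends of the element, as opposed to retrotransposons such as LINEs and endogenous retroviruses, which copy themselves through RNA. In the human genome they are fossils, no longer mobile, and many are short internally deleted copies that were moved by the transposase of a longer relative. The hAT superfamily is named after the hobo, Activator and Tam elements of fly, maize and snapdragon and includes the Charlie group. The TcMar superfamily holds the mariner and Tigger elements, and the Tigger transposase is related to that of the pogo element of Drosophila. Several human genes descend from such transposases, and the THAP domain of RONIN, the DNA-binding partner named in the title of the series, is shared with the P element transposase of Drosophila.

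The reference sequence of 1 member could be read, because its peak covers a whole promoter window of RefSeq. This is a MER5A peak of score 120 on chromosome 1 (117821733 to 117822473, hg38), which the deposited annotation calls intergenic and assigns to GDAP2, at 107518 bp. In the RefSeq promoter table (GRCh38.p14) the peak contains all 300 bases of the window of LOC105378929, an lncRNA gene, at chr1:117821752-117822051 on the minus strand. The peak centre lies 302 bp upstream of that start site and 52 bp outside the window, so the MER5A sequence at the centre is not itself shown. The capitals mark the 1 match to the motifs searched.

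LOC105378929: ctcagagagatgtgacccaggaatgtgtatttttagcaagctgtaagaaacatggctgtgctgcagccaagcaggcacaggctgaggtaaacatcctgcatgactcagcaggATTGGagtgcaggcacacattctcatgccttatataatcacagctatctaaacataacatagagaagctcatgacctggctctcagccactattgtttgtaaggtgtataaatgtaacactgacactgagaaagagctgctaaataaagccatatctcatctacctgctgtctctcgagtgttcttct

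The match is CCAAT, read on the other strand, which 34.6% of the 35116 RefSeq promoter windows hold. The other motifs, searched on both strands, were not found in this window. Of all windows 2.77% hold ACTACAA, the core of the motif known for RONIN, and 7.26% hold the E-box CACGTG. The CRE motif TGACGTCA is held by 1.85% of windows, and the GC box GGGCGG by 45.0%. No motif lies within another. The window is 44% G and C, against a median of 58.7% over all windows. Beyond this peak the sequences of the members were not used here.

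All members lay in introns (103 peaks) or intergenic sequence (86 peaks). The annotation fixes this, since none of the 3987 peaks in promoters, exons, UTRs or transcript ends carries any repeat label. Peaks in introns and intergenic sequence are therefore the fitting background, and the 189 members were 1.08% of these 17453 peaks (0.935 to 1.25%). Of the intron peaks 1.27% were members (1.04 to 1.54%), and of the intergenic peaks 0.921% (0.737 to 1.14%). Introns held 54.5% of the members (47.1 to 61.7%), against 46.4% of the 17264 other peaks of both classes (45.7 to 47.1%). The MIR elements, a family of ancient SINEs, had 58.0%, and the ancient LINEs L2 and CR1 had 58.5%. The intron was the first of its transcript for 35 of the 103 intron members (34.0%, 24.9 to 44.0%), near the 35.5% of the other intron peaks.

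The 2 large superfamilies had similar numbers of peaks. The hAT superfamily held 100 members (52.9%, 45.5 to 60.2%) and TcMar held 87 (46.0%, 38.8 to 53.4%). Within hAT, 78 peaks were hAT-Charlie, 9 hAT-Tip100, 6 hAT without a subgroup, 5 hAT-Blackjack and 1 hAT-Ac, and 1 had an uncertain hAT-Tip100 label. Within TcMar, 83 were TcMar-Tigger, 3 TcMar-Tc2 and 1 TcMar-Mariner, the last over an HSMAR1 element. The remaining 2 were a Ricksha_b peak of the MULE-MuDR family with a score of 147 and a MER85 peak of the PiggyBac family with a score of 14.

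Members were spread over 63 element names, 30 of which occurred in a single peak. The hAT superfamily was the more varied, with 39 names, while TcMar had 22. Tigger1 alone made up 35 of the 87 TcMar peaks (40.2%, 29.9 to 51.3%) and 18.5% of all members. The next most frequent names were MER1B with 8 peaks and MER5A, MER102c and Tigger16a with 7 each. How much of the genome each element occupies was not used here, so none of these counts is an enrichment.

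The deposited peak score is the authors' whole-number value per peak on a scale not stated, and serves only to describe and rank peaks of this list. Member scores ran from 13 to 772 with a median of 54 (interval 48 to 61), and the middle 50% lay between 35 and 87. The 17264 other intron and intergenic peaks had a median of 61 (60 to 61) and quartiles of 37 and 101, and all 21251 other peaks also had a median of 61. MIR peaks had a median of 57, L2 and CR1 peaks 61, and L1 peaks, the largest repeat group of the list, 59. The 2959 intron and intergenic peaks without a repeat or CpG label had a median of 53 (53 to 55), close to that of the members. The hAT median was 48 (41 to 57) and the TcMar median 60 (52 to 69), so the intervals overlap. In the smaller hAT groups the medians were 91 for the 6 unsubdivided hAT peaks, all of them MER53 elements, 61 for hAT-Tip100 and 37 for hAT-Blackjack.

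**Figure D1:**
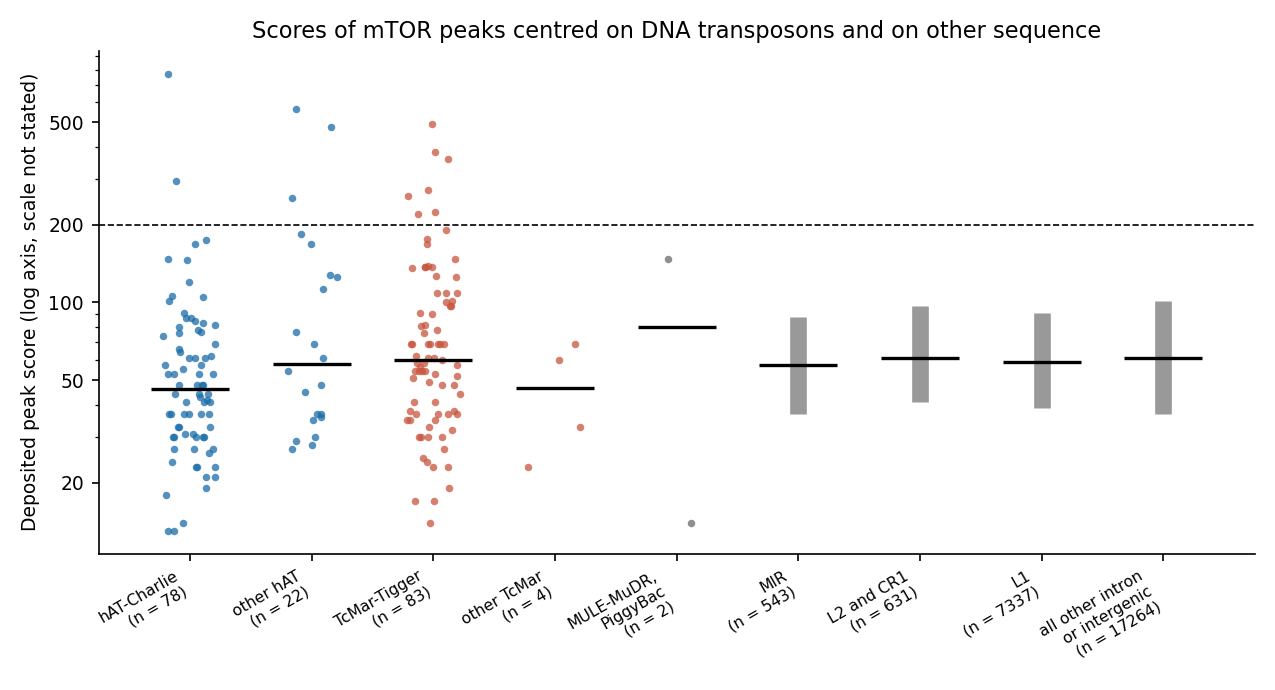
Deposited peak score (log axis) of every DNA transposon peak by family, with black bars at the medians, beside MIR, L2 and CR1, L1 and all other intron or intergenic peaks, shown as grey bars over the quartiles with the median in black. The dashed line is the score of 200 that begins the top-scoring 10% of all peaks; 12 of the 189 members lie above it, and the member families and the other sets overlap over most of their range.

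A score of 200 or more, the 90th percentile of all peaks, was reached by 12 members, or 6.35% (3.32 to 10.8%), where 10.0% of all peaks and 9.66% of the other intron and intergenic peaks reached it. The members' interval includes both background values. It was reached by 4.05% of MIR peaks (2.56 to 6.07%) and 6.50% of L2 and CR1 peaks (4.70 to 8.71%). Intron and intergenic peaks without a repeat or CpG label had 10.3% (9.27 to 11.5%). Of the 12, 7 were TcMar-Tigger, 2 hAT-Charlie, 2 hAT-Tip100 and 1 hAT-Blackjack. Tigger1, the most frequent name, gave 1 of them and Tigger16a gave 4.

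The highest score, 772, belonged to an intergenic MER113 peak on chromosome 11 (70232950 to 70234219), 30421 bp downstream of the start of FADD, which encodes the adaptor of death receptors. It ranked 175 among all 21440 peaks, and the next 2 members ranked 337 and 423. The second, with 563, was an Arthur1B peak on chromosome 3 (48617024 to 48618302), 4106 bp from the start of TMEM89. A Tigger16a peak in intron 8 of 8 of ARID3A, a gene for an ARID-type DNA-binding protein, had 493 (chromosome 19, 970429 to 971243). Its nearest annotated start was that of WDR18, which encodes a factor of ribosome assembly, 13492 bp away. A MER63A peak had 478 (chromosome 15, 101127743 to 101128609) and lay 123872 bp from the start of CHSY1, a chondroitin synthase gene. RefSeq has nearer starts for the MER113 peak, LOC124902705 at 21112 bp, and for the MER63A peak, LOC124903565 at 34777 bp.

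A Tigger5b peak with a score of 384 was the widest member, at 2658 bp (chromosome 17, 83040415 to 83043072). It lay in an intron 10027 bp from the start of B3GNTL1. A MER2 peak in intron 1 of SCD5, a stearoyl-CoA desaturase gene, had 361 and was assigned to the microRNA gene MIR575, 12127 bp away. A MER117 peak with 297 lay 19222 bp from ARID5A, and a MER96 peak with 255 lay 64618 bp from UBE2E1, a ubiquitin-conjugating enzyme gene. The remaining peaks of 200 or more were 3 further Tigger16a peaks and a Tigger1 peak in an intron of SHOC1, a meiotic recombination gene, with 225. Just outside that limit came a Tigger15a peak with 191 nearest to LOC105375075, a MER53 peak with 185 nearest to ARRDC5 and a Tigger7 peak with 176 nearest to FSCB.

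Tigger16a peaks had the highest scores of any member name with at least 5 peaks, a pattern singled out after the values were seen. Their 7 scores were 493, 273, 258, 220, 126, 109 and 109. Every one was above the upper quartile of the members, 87, and the lowest was reached by 30 of the other 182 members (16.5%, 11.4 to 22.7%) and by 23.0% of the other intron and intergenic peaks. The peaks lay at 7 separate loci on 7 chromosomes. Their host introns belonged to ARID3A, to SAMD4A, an RNA-binding protein gene with a peak in intron 1 of 11, to PAX5, the B-cell transcription factor gene, with a peak in intron 4 of 8, and to the RNA genes LOC100505736 and LINC02236. The 2 intergenic ones were nearest to DOK2 and LOC100505918. The SAMD4A peak (chromosome 14, 54572309 to 54572793) was the nearest of these to a start site, at 4939 bp.

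Across repeats of every class, 287 element names had at least 5 peaks in introns and intergenic sequence. Only 4 of them had a median above the 220 of Tigger16a, and all 4 were retroviral: HERVK-int at 374, LTR76 at 334, LTR2 at 309 and MER83B-int at 249. None of the 287 had a lowest score above 109. A lowest score is higher where peaks are few, and among the 88 names with 5 to 10 peaks the median lowest score was 27 and the second highest 87. Without Tigger16a, 8 of 182 members (4.40%) reached a score of 200.

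The other frequent names stood lower and overlapped one another. MER53 had a median of 91 over 6 peaks, from 27 to 185, and MER58A had 64.5 over 6, from 23 to 168. Tigger1 had 56 over 35 peaks, from 17 to 225. MER5A had the lowest median, 26 over 7 peaks, and its top peak is the one over the LOC105378929 promoter, with 120. Of the 287 names 285 had a higher median than MER5A. MER5B followed with 40.5 over 6 peaks, all in introns. MER117 ran from 19 to 297 within 5 peaks, so a name did not fix a score.

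**Figure D2:**
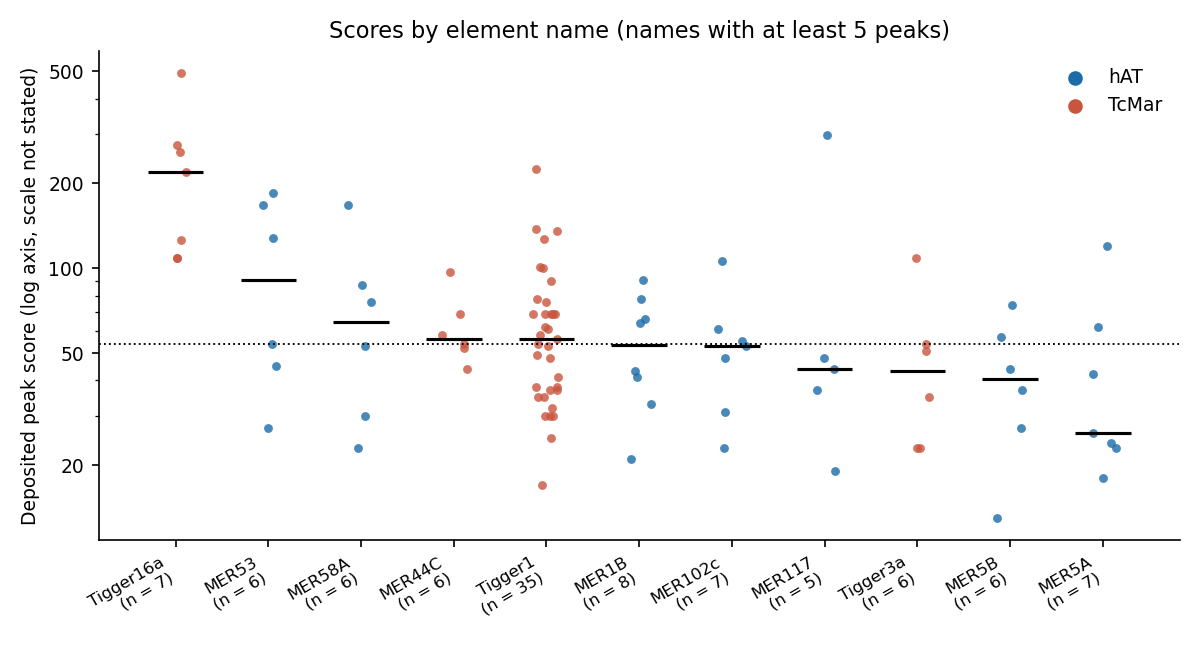
Deposited peak score (log axis) of each peak for the 11 element names with at least 5 peaks, ordered by median (black bars); blue is hAT, red is TcMar and the dotted line is the member median of 54. All 7 Tigger16a peaks lie at 109 or above, while every other name has a peak below 54.

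Peak widths of the members ranged between 248 and 2658 bp. Their median was 390 bp (357 to 427 bp), the same as the 390 bp of the other intron and intergenic peaks. MIR peaks were narrower, with a median of 346 bp (338 to 357 bp), as were L2 and CR1 peaks with 356 bp (340 to 369 bp). Medians were 387 bp in hAT and 388 bp in TcMar. In all, 9 members were wider than 1000 bp (4.76%, 2.20 to 8.85%), near the 5.26% of the other intron and intergenic peaks (4.93 to 5.60%). MIR peaks had 1.47% (0.638 to 2.88%) and L2 and CR1 peaks 3.01% (1.82 to 4.66%). Beside Tigger5b, the 5 widest were Arthur1B at 1279 bp, MER102c near the pseudogene SUZ12P1 at 1277 bp, MER113 at 1270 bp and Tigger6a in an intron of the zinc finger gene ZNF507 at 1263 bp. A label covers the peak centre only, and these peaks extend into sequence beside it. Wider members tended to score higher, with Spearman's rho of 0.48 over the 189 members and 0.56 over the other intron and intergenic peaks, a description in which both measures come from the same reads.

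**Figure D3:**
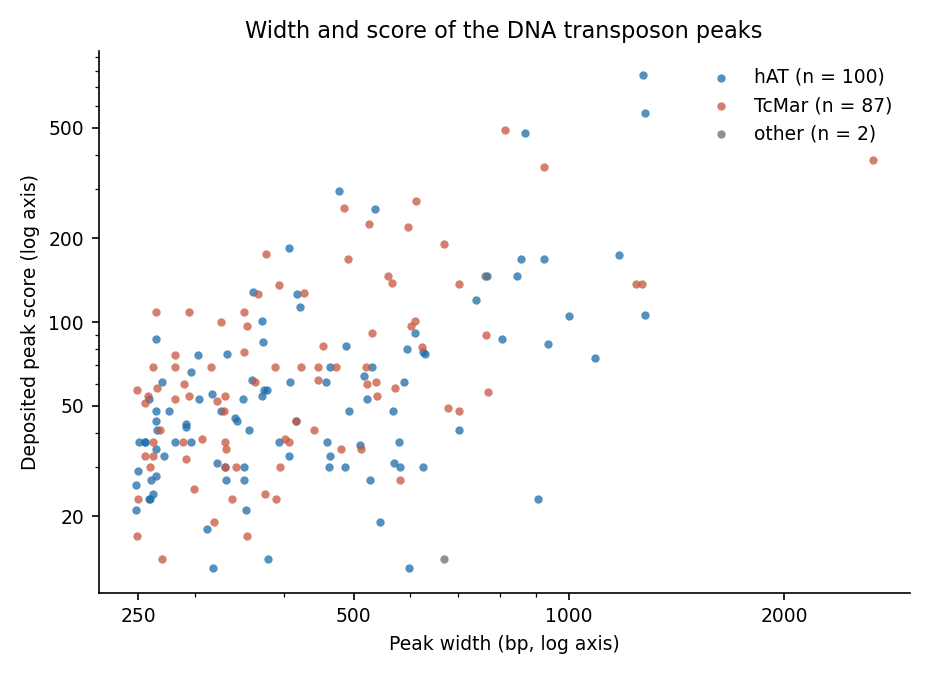
Deposited peak score against peak width, both on log axes, for the 189 DNA transposon peaks, coloured by superfamily. Scores were higher in wider peaks, both large superfamilies cover the same area, and the single peak of 2658 bp is the Tigger5b peak near B3GNTL1.

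DNA transposon peaks lay farther from the nearest deposited start site than MIR, L2 and CR1 peaks. The median distance of the centre to the nearest start site was 27892 bp (20438 to 33600 bp), against 17618 bp for MIR (14039 to 20050 bp) and 17378 bp for L2 and CR1 (15372 to 20392 bp). L1 peaks lay farther still, at 42670 bp (41165 to 44338 bp). Intron and intergenic peaks without a repeat or CpG label were at 20489 bp (19098 to 21899 bp), an interval that overlaps that of the members. For the other intron and intergenic peaks the median was 31540.5 bp (30655 to 32307 bp), an interval that overlaps that of the members. Within 10 kb of a start site were 42 members, or 22.2% (16.5 to 28.8%), against 37.2% of MIR peaks (33.1 to 41.4%), 34.5% of L2 and CR1 peaks (30.8 to 38.4%) and 13.7% of L1 peaks (12.9 to 14.5%). The other intron and intergenic peaks together had 22.5%, and those without a repeat or CpG label 33.0% (31.3 to 34.7%). More than 50 kb away were 33.9% of members (27.2 to 41.1%), against 19.2% of MIR peaks (15.9 to 22.7%) and 44.9% of L1 peaks (43.8 to 46.1%). The share in the other intron and intergenic peaks was 36.9% (36.1 to 37.6%), within the members' interval. By these shares the members stood between the ancient SINEs and LINEs on one side and L1 on the other.

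**Figure D4:**
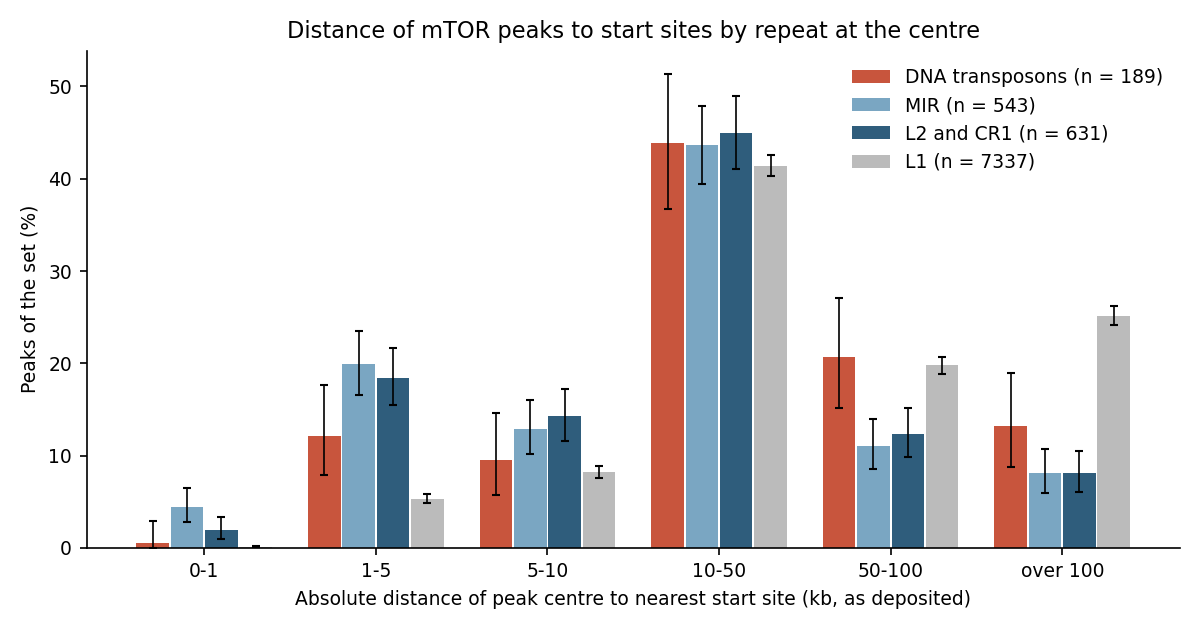
Share of peaks (%) by absolute distance of the centre to the nearest start site as deposited (kb), for DNA transposon, MIR, L2 and CR1, and L1 peaks, with exact 95% intervals of counting error. Members are fewer than MIR within 5 kb and fewer than L1 beyond 100 kb, where they hold 13.2% against 25.1%.

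A centre within 1 kb of a start site, in the deposited distances, was found for 1 member, or 0.529% (0.0134 to 2.91%), where 16.8% of all peaks and 2.72% of the other intron and intergenic peaks had one. Promoter peaks never carry a repeat label, so the first of these backgrounds cannot be set against the members. That member was a MER5A1 peak of score 61 in intron 1 of 3 of LINC02611, a non-coding RNA gene, 482 bp from the start (chromosome 2, 98771188 to 98771645). The start sites of the RefSeq promoter windows, available for the 179 of 189 members outside chromosome 8, place 3 within 1 kb of a start. They are this peak, the MER5A peak at LOC105378929 and a Charlie24 peak of score 21 at 885 bp from LOC107985897. That is 1.68% of the members (0.347 to 4.82%), against 3.29% of the other intron and intergenic peaks.

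The 5 longest distances are given as deposited. A MER44B peak of score 57 was assigned to KCNMA1-AS1 at 535532 bp, and a Tigger1 peak of score 61 to LINC02518 at 510690 bp. RefSeq has starts much nearer to both, LOC124902462 at 47496 bp and LOC105377950 at 42640 bp. The next longest distances were of peaks assigned to DNAH5 at 377366 bp, PCDH15 at 335975 bp and TRPS1 at 305117 bp. None of these 5 scored above 61.

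The intervals of the 2 large superfamilies overlapped in each measure of position. Introns held 48.0% of hAT peaks (37.9 to 58.2%) and 62.1% of TcMar peaks (51.0 to 72.3%). Within 10 kb of a start site were 27.0% of hAT peaks (18.6 to 36.8%) and 17.2% of TcMar peaks (9.98 to 26.8%). A non-coding RNA gene was nearest to 22 of the 100 hAT peaks (14.3 to 31.4%) and to 29 of the 87 TcMar peaks (33.3%, 23.6 to 44.2%).

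The nearest genes of the members were 179 different ones, and 9 of these were nearest to more than 1 member. Protein-coding genes were nearest to 132 members (69.8%, 62.8 to 76.3%), non-coding RNA genes to 51 (27.0%), pseudogenes to 5 and a snoRNA gene to 1. The protein-coding share of the other intron and intergenic peaks was 69.1%. For 37 of the 103 intron members (35.9%, 26.7 to 46.0%) the gene whose intron holds the peak was not the nearest gene, so a nearest gene often names a neighbour. This share was not computed for the other intron peaks, so it is not given as a trait of the members.

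Each gene list tied to the title of the series had at most 1 gene nearest to a member. Of 49 mTOR pathway genes, 1 was nearest to a member: RPTOR, whose product brings substrates to the kinase in mTORC1. Its peak, over a MER91C element of the hAT-Tip100 family, had a score of 77 and lay in intron 1 of 33, 30712 bp from the start (chromosome 17, 80575384 to 80575716). In RefSeq the start of LOC105371922 is nearer to this peak, at 11411 bp. The RPTOR peak alone is 0.529% of members (0.0134 to 2.91%), against 0.145% of the other intron and intergenic peaks for the list. Among cytosolic ribosomal protein genes only RPS3, of the small subunit, was nearest to a member, an intergenic Charlie2b peak of score 105 at 13192 bp (chromosome 11, 75385799 to 75386799). Such genes were nearest to 0.529% of members (0.0134 to 2.91%) and 0.214% of the other intron and intergenic peaks. Among mitochondrial ribosomal protein genes it was MRPS10 alone, 97388 bp from a MER20 peak of score 14 in an intron of TRERF1, again 0.529% of members, against 0.0985% of the other peaks. In RefSeq the start of LOC124901316 is nearer to the MER20 peak, at 64478 bp.

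No member was nearest to any of 18 genes of RONIN and HCF-1 partners, 20 senescence regulators or 43 genes derived from DNA transposases, the THAP genes with RONIN among them. A count of 0 of 189 allows a share of up to 1.59% if the limit is set at 3 counts, and the exact 95% interval ends at 1.93%. The shares of the other intron and intergenic peaks, 0.0174%, 0.185% and 0.151% for these lists, lie below both limits, so a lower share in the members was not detectable. ZNF genes, which encode zinc finger proteins, were nearest to 3 members, ZNF507, ZNF268 and ZNF280D (1.59%, 0.329 to 4.57%), against 1.74% of the other peaks.

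Another mTOR peak lay within 5 kb of 47 members, or 24.9% (18.9 to 31.7%), where 22.3% of all peaks and 21.1% of the other intron and intergenic peaks had such a neighbour. MIR peaks had one in 34.3% (30.3 to 38.4%), L2 and CR1 peaks in 31.5% (27.9 to 35.3%) and L1 peaks in 14.1% (13.3 to 14.9%). The members again lay between these sets. Intron and intergenic peaks without a repeat or CpG label had a neighbour in 32.1% (30.4 to 33.8%). Of the 47 neighbours 17 carried no repeat label (36.2%), as did 35.6% of all peaks. LINEs lay under 12 (25.5%, 13.9 to 40.3%), against 37.2% of all peaks, and LTR elements under 6 (12.8%, 4.83 to 25.7%), against 18.3%. SINEs lay under 5 (10.6%, 3.55 to 23.1%), against 5.88% of all peaks. DNA transposons lay under 7 (14.9%), against 0.882%, and each of these 7 is itself a member with a member beside it. The labels of neighbours were not counted for other sets of peaks. L1 peaks less often and MIR peaks more often have a neighbour, so all peaks are not a matched background. These shares are therefore not given as a trait of the members.

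**Figure D5:**
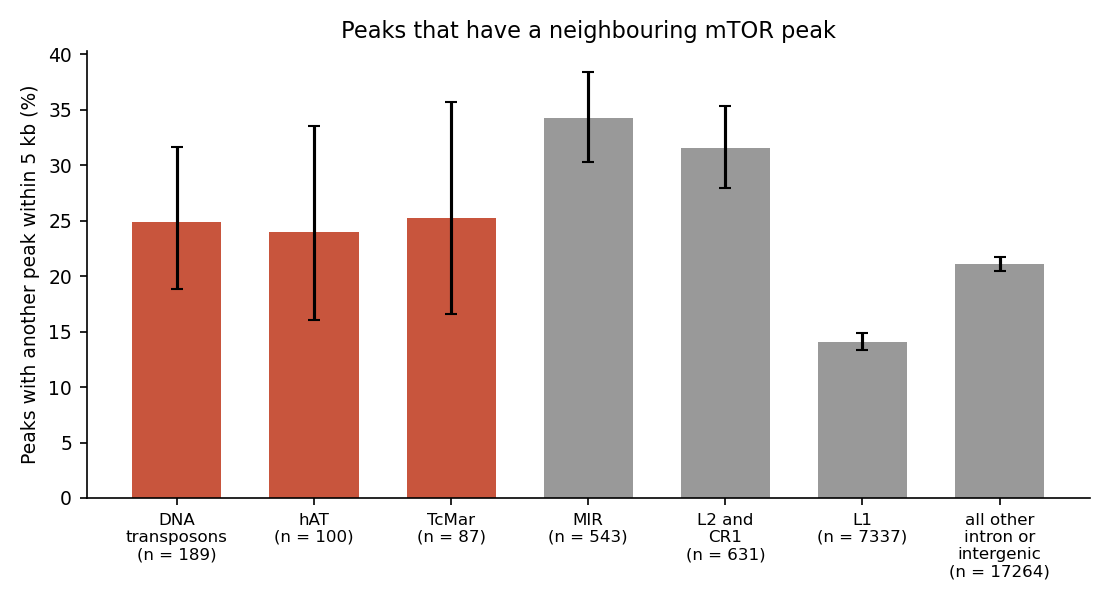
Share of peaks (%) with another mTOR peak within 5 kb, edge to edge, for DNA transposon peaks and their 2 large superfamilies (red) and for other sets (grey), with exact 95% intervals of counting error. The members, at 24.9%, stand above L1 at 14.1% and below MIR at 34.3%.

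The 7 DNA transposon neighbours all carried the same element name as the member beside them, and formed 3 groups. In an intron of SHOC1, 3 Tigger1 peaks lay within 2512 bp (chromosome 9, 111728892 to 111731403), with scores of 30, 225 and 30 from left to right. A pair of Tigger1 peaks assigned to the pseudogene ARGFXP2 spanned 1391 bp in an intron of RHOT1, a mitochondrial GTPase gene, with scores of 69 and 38. A pair of Charlie25 peaks upstream of PLEKHG6 spanned 1784 bp, with scores of 48 and 53. Whether such peaks share 1 element copy was not tested, and they are not independent of each other.

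Every autosome carried members, and the X chromosome carried 1. Chromosomes 2 and 5 had the most, 15 each. As a share of the intron and intergenic peaks of a chromosome they ranged from 0.385% on chromosome 13 (1 peak, 0.00974 to 2.12%) to 1.53% on chromosome 9 (8 peaks, 0.661 to 2.99%), intervals that overlap. Chromosome 19, which is dense in genes and in mTOR peaks, had 11 members and a share of 0.954% (0.477 to 1.70%).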

How the data were processed

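Per the labels' protocols, cross-linked MDA-MB-231 chromatin was enriched with an mTOR antibody and sequenced with paired-end reads. Per the submitters' processing notes, the tools were Trimmomatic 0.36, BWA 0.7.12, Picard 2.0.1, MACS2 2.1.1.20160309 and HOMER 4.11.1, with the build hg38. How reads matching many repeat copies were placed, which could change the copies that carry peaks, is not given in the sources used here. The score deposited by the authors is a whole number without a stated scale, and the deposited positions and distances are in bp.

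The detailed annotation was split into element, class and family, and members were kept by class. Shares have exact Clopper-Pearson 95% intervals and medians exact binomial order-statistic intervals. Both, and the search for neighbouring peaks, were tested on simulated data. Nearest genes and distances are the deposited ones. Host genes, and start sites where RefSeq is named, came from RefSeq tables for GRCh38.p14. All 103 intron transcripts matched. Promoter windows were 250 bases before to 50 after a start. Chromosome 8 windows were not used here, which leaves out 10 members.

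Members and gene lists were chosen with earlier results of these data known. Genes were named for the 15 top-scoring members, the top 3 of each superfamily, the top peak of each name with 10 or more peaks, members within 1 kb of a start, the 5 widest, the 5 farthest and list genes. Others named, such as those of Tigger16a and of neighbouring peaks, were chosen after their values were seen, as was the comparison with intron and intergenic peaks only. The plan described element names with at least 10 peaks, which only Tigger1 reached. The limit of 5 peaks used for the other names departs from that plan. The input library was not analysed here. Intervals came from scipy 1.17.1 in Python 3.11.15, tables from pandas 2.3.3 with numpy 2.4.6, figures from matplotlib 3.10.9.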

Additional observations from a re-analysis of the deposited data

How the results depend on the processing

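Of 71 recomputed values, 50 stayed within the counting interval of the value reported. Keeping class exactly DNA left the same 189 peaks, so its agreement was fixed in advance. Keeping only intron and intergenic peaks also left every member in place. The hAT share, median score, median width and share within 1 kb of a start were then unchanged by construction. The top-scoring 10% of all peaks leave 12 members. There members were 0.559% of peaks, hAT 41.7% of members, the median score 329 and the median width 713 bp. Of these members 0% lay within 1 kb of a start, and 0% had another top-scoring peak within 5 kb. Neighbours were sought only among the peaks kept. In the full list some of the 12 do have one, such as the SHOC1 Tigger1 peak of score 225, 266 bp from another. Among the higher-scoring 50%, the median score was 100.5, the median width 519 bp, 14.6% reached 200 and 13.4% had a neighbour also in that 50%. These sets have higher scores and fewer peaks by construction. Their shares with a neighbour leave out lower-scoring neighbours and do not describe the full list. Members were 1.08% of intron and intergenic peaks and 0.719% of all peaks without Tigger1, when hAT held 64.9% of members; counted by name hAT held 61.9%. A limit at the 95th percentile gave 3.17% and at the median of all peaks 43.4%. Within 100 bp, and in the deposited promoter class, were 0% of members, and within 5 kb of a start 12.7%. Neighbours within 1 kb and 20 kb were found for 9.52% and 55.0%. Leaving out chromosome 19, peaks wider than 1000 bp, Tigger16a or the uncertain family moved no value out of its interval. Settings without Tigger1, Tigger16a or the uncertain family, intron and intergenic peaks only, and RefSeq starts were chosen after seeing the data. No paired analysis was possible because each group has 1 library. Depth is unknown, so weaker peaks may have been missed.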

Other observations

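Some members lay near each other over longer distances. With gaps of at most 1 Mb, 6 runs of 3 or more members held 19 of the 189, the 3 Tigger1 peaks in SHOC1, which lie within 2512 bp, among them. No such count was made for other sets of peaks, so whether these runs exceed the local density of peaks was not tested. On chromosome 11 a run of 3 in 643404 bp (70145186 to 70788589) held the top MER113 peak of score 772 beside a MER102c peak with 48 and a Tigger7 peak with 97. That span held 15 mTOR peaks in all. On chromosome 15 a run of 3 in 1106626 bp (69682397 to 70789022) held a Tigger1 peak with 100, a MERX peak with 91 and a MER44C peak with 58, among 28 mTOR peaks in all. DNA copy number of these regions was not tested.

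Scores were often tied: 12 members had 37, 10 had 30 and 10 had 69, so ranks in the lower part of the list are coarse.

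RefSeq placed a start site more than 1 kb nearer than the deposited distance for 44 of 179 members (24.6%) and for 24.7% of the other intron and intergenic peaks.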
